A study of Mus musculus with 16 samples.

Results

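Fibronectin and 7 matricellular proteins were followed in whole lung RNA during bleomycin-induced pulmonary fibrosis. The 8 genes were taken by symbol from a table of 16380 genes: Fn1 (fibronectin), Tnc (tenascin C), Sparc (osteonectin), Thbs1 and Thbs2 (thrombospondins), Postn (periostin), Tgfbi (TGF-beta induced protein) and Cthrc1 (collagen triple helix repeat containing 1). All 8 were listed and had at least 1 read in each of the 16 libraries. The 16 libraries formed 4 groups of 4. Wildtype lungs came from saline-treated (WT-Sal) and bleomycin-treated (WT-Bleo) animals, and lungs of mice without IL-31RA likewise (KO-Sal and KO-Bleo). All were on the C57BL/6 strain, the wildtype animals were littermates of the knockouts, and the study used both sexes at 10 to 18 weeks of age. Bleomycin, a drug that breaks DNA, was given into the skin at 6 U/kg on 5 days per week for 4 weeks, saline was given on the same schedule, and lungs were taken on day 28. The knockout lacks exons 4 to 6 of Il31ra by homologous recombination, so the loss is not limited to 1 cell type. The sources used here do not tie libraries to single mice or litters, so the tests measure the spread between these libraries, which may be technical.

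Fibronectin is a large glycoprotein that cells assemble into fibrils through integrins, and the fibrils serve as a scaffold on which collagen is laid down. Matricellular proteins are secreted into the matrix but mainly act on cells and on other matrix proteins rather than bearing load: they bind integrins, collagens and growth factors and are typically raised during development, wound repair and fibrosis. In lung they are made chiefly by fibroblasts and myofibroblasts, with thrombospondin 1 also carried by platelets and TGF-beta induced protein also made by macrophages.

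Levels are given as RPKM, a read measure that allows for the length of each gene and the depth of each library, and fold changes as differences of log2(RPKM + 1), which makes the changes of low genes smaller. Total reads were between 7790569 and 32153634 in 14 libraries but 604134 in WT-Bleo replicate 6 and 1234593 in KO-Bleo replicate 15, where 2089 and 1208 genes were at 0 against at most 200 elsewhere. Il31ra had 5 to 17 reads per WT-Sal library and 0 to 13 per WT-Bleo library, against 2 to 3 (KO-Sal) and 2 to 9 (KO-Bleo) in the knockout, so the targeted gene was near the limit of detection in every group and its gene-level value does not separate the deleted exons from the rest. All 7 lung markers looked for (such as Sftpc, a surfactant gene of alveolar type 2 cells) were listed, while the summed adipocyte markers stood at 488 RPKM in KO-Sal replicate 10 against 60.9 to 82.2 in the other KO-Sal libraries.

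With saline, the 8 genes together reached 855 ± 59.0 RPKM in wildtype and 630.2 ± 73.7 RPKM in knockout lungs (SD, n = 4 each). With bleomycin they reached 1854 ± 176 RPKM and 1291 ± 149.9 RPKM, respectively. Sparc made up between 63.0% and 66.4% of the sum in each group. Fn1 took a mean share of 4.78% of the wildtype sum with saline but 13.3% with bleomycin, and 5.70% and 10.98% of the knockout sum. The share of Postn was smaller with bleomycin (9.68% against 18.2% in wildtype and 12.1% against 17.6% in knockout lungs). Tnc made up a mean of 0.417% of the sum in WT-Sal and 1.49% in WT-Bleo. Thbs2, the least abundant member, had a mean share of at most 0.102% in each group and reached 0.146% in 1 KO-Sal library.

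**Figure D1:**
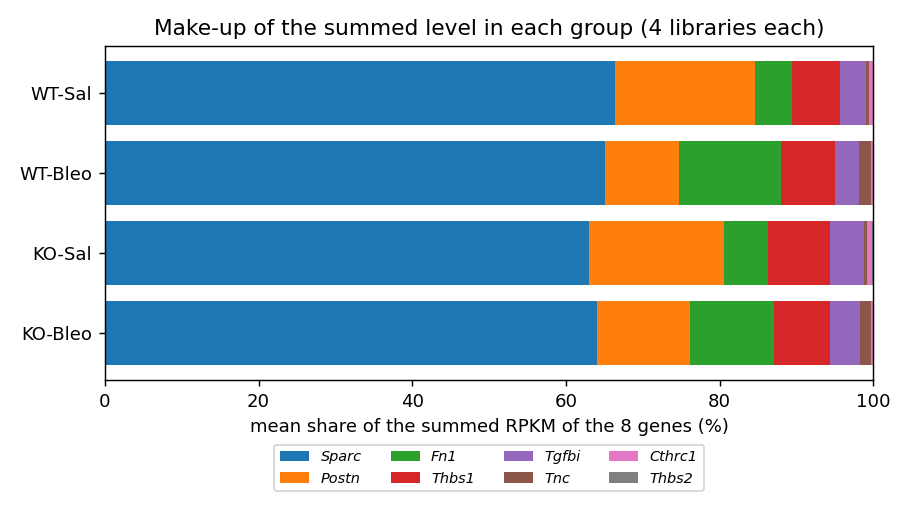
Stacked bars show the mean share (%) of each gene in the summed RPKM of the 8 genes, 1 bar for each group of 4 libraries. Sparc fills 63.0% to 66.4% of every bar, and the Fn1 segment is 4.78% in WT-Sal and 13.3% in WT-Bleo.

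Ordered by RPKM, which is scaled to gene length, the WT-Sal lungs ran Sparc, Postn, Thbs1, Fn1, Tgfbi, Cthrc1, Tnc and Thbs2. The libraries of Thbs1 and Fn1 overlapped there, as did those of Cthrc1 and Tnc, so those neighbours were not separated beyond their spread. In WT-Bleo the order was Sparc, Fn1, Postn, Thbs1, Tgfbi, Tnc, Cthrc1 and Thbs2, with overlap between Cthrc1 and Thbs2 only. In KO-Bleo Postn came before Fn1, and the libraries of Fn1 overlapped those of Postn above it and of Thbs1 below it.

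**Figure D2:**
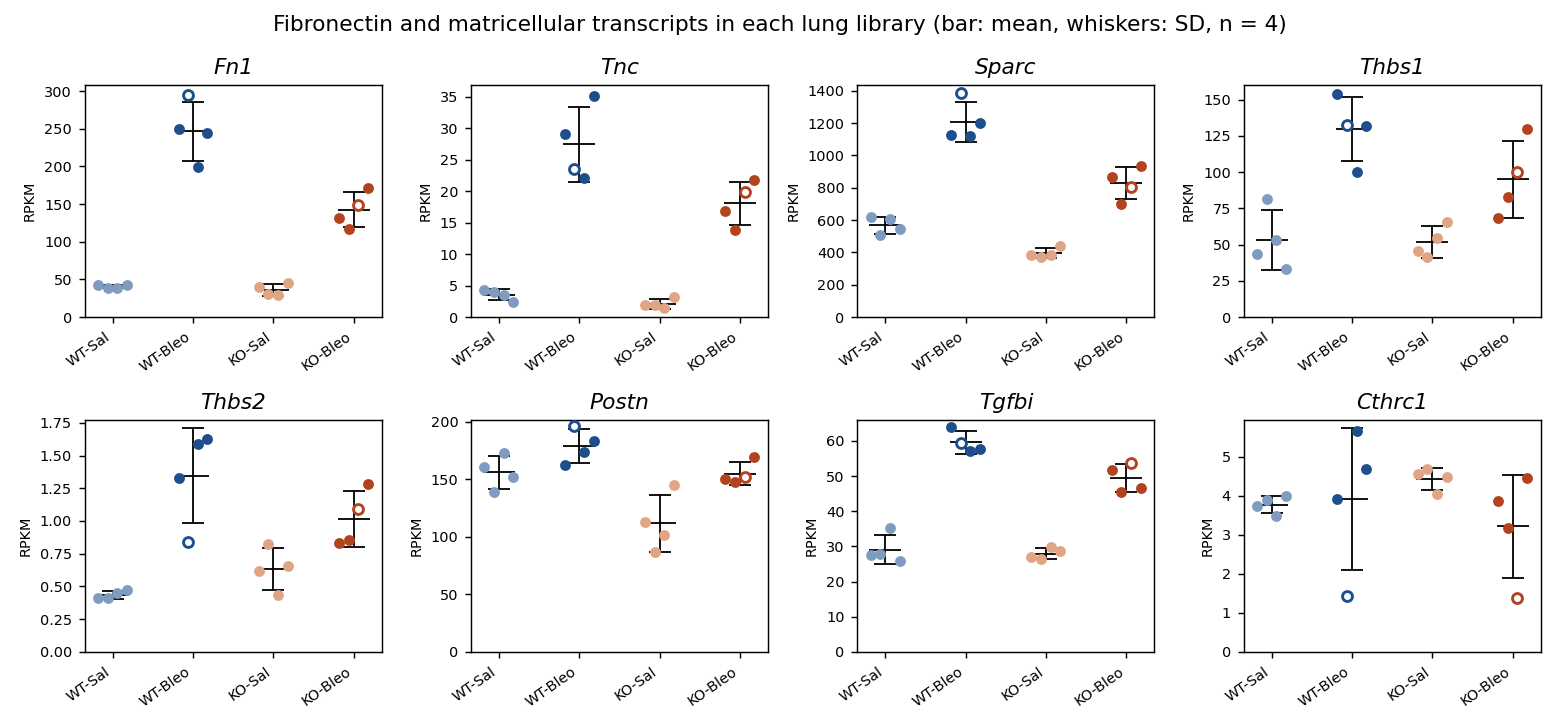
RPKM (linear axes from 0) of the 8 genes in each of the 16 libraries, with the group mean and SD (n = 4) and open points for the shallow WT-Bleo replicate 6 and KO-Bleo replicate 15. For Fn1 all WT-Bleo points lie between 199 and 295 RPKM, above all KO-Bleo points, and the open points of Cthrc1 lie at 1.42 and 1.39 RPKM, below the other points of their groups.

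The first question was how bleomycin changed these genes in wildtype lungs. Of the 8 genes, 6 rose in WT-Bleo against WT-Sal (Fn1, Tnc, Sparc, Thbs1, Thbs2 and Tgfbi) and none fell, where limma called 30.9% of all 16380 genes and 18.6% higher. The median log2 fold change of the 8 was 1.05, against 0.01 over all genes. In the same 6 genes no WT-Bleo library overlapped a WT-Sal library, which held with WT-Bleo higher for 19.7% of all genes, and the exact permutation p was 0.0286, the smallest that 4 against 4 can give. In knockout lungs 6 of the 8 also rose with bleomycin (Fn1, Tnc, Sparc, Thbs1, Postn and Tgfbi), where 23.6% of all genes were called and 13.2% higher, and the median of the 8 was 0.83. There 7 of the 8 genes did not overlap, with KO-Bleo higher, against 15.3% of all genes. Cthrc1 passed the test in neither genotype.

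Markers of several cell types also changed with bleomycin. Over all genes limma called 30.9% in wildtype lungs (18.6% higher) and 23.6% in knockout lungs (13.2% higher). The 6 monocyte-derived macrophage markers summed to between 27.1 and 29.8 RPKM in WT-Sal and between 140.0 and 176 RPKM in WT-Bleo, and 5 of the 6 rose in each genotype. Of 8 general macrophage markers 6 rose and 1 fell in each genotype. Of 5 pericyte markers 3 rose in wildtype lungs and 0 were called by limma in knockout lungs, and of 8 immediate early genes 5 rose and 1 fell in wildtype lungs against 1 and 1 in knockout lungs. Of 6 smooth muscle and myofibroblast markers 2 rose and 1 fell in wildtype lungs, and 1 fell in knockout lungs. Of 6 resident fibroblast markers 5 fell in wildtype and 4 in knockout lungs. Inmt made up 74.6% of their WT-Sal sum and lay between 800.1 and 1086 RPKM there against 183 to 227 RPKM in WT-Bleo, while the other 5 summed to between 313 and 328 RPKM in WT-Sal and between 177 and 219 RPKM in WT-Bleo. None of these markers was at 0 in a whole group, and their part in the changes of the 8 genes was not tested. In RNA of whole lung, more cells of a type and more RNA per cell cannot be told apart.

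The second question was whether the 8 genes differed between bleomycin-treated knockout and wildtype lungs. All 8 log2 fold changes of KO-Bleo against WT-Bleo were below 0 (48.3% of all genes were), with a median of -0.37, but limma called 0 of the 8 at an adjusted p under 0.05, against 0.214% of all genes called and 0.0916% called lower. At an unadjusted p under 0.05, 6 of the 8 were lower in KO-Bleo, against 6.36% of all genes, and limma-voom on the recovered reads called 4 of the 8 lower (Fn1, Sparc, Thbs2 and Tgfbi), against 1.92% of the genes it tested. Fn1, Tnc, Sparc and Tgfbi were lower in all 4 KO-Bleo libraries than in any WT-Bleo library, which held for 4.76% of all genes. Each of these 4 genes had an exact permutation p of 0.0286. Without both shallow libraries 5 of the 8 did not overlap, where 19% of all genes did not, and limma again called 0. KO-Bleo against WT-Bleo shares its WT-Bleo libraries with the wildtype comparison and its KO-Bleo libraries with the knockout comparison, so the 3 sets of values are not independent.

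Summed levels of contractile and perivascular cell markers were lower in KO-Bleo without overlap, although nearly all single markers did not pass the test. Of all single genes 4.76% were lower in KO-Bleo without overlap. The 6 smooth muscle and myofibroblast markers (Acta2, Myh11, Cnn1, Des, Actg2 and Tagln) summed to between 121 and 195 RPKM in KO-Bleo and between 217 and 322 RPKM in WT-Bleo. All 6 had log2 fold changes below 0 (48.3% of all genes were) and none was called. At an unadjusted p under 0.05, 5 were lower, against 6.36% of all genes. The 5 pericyte markers summed to between 57.7 and 75.7 RPKM in KO-Bleo and between 83.6 and 94.0 RPKM in WT-Bleo. Of them 1 was called lower, against 0.0916% of all genes. Rgs5, 1 of these pericyte markers, lay between 5.17 and 8.28 RPKM in KO-Bleo and between 14.7 and 16.1 RPKM in WT-Bleo. Part of the gap between the pericyte sums thus lies in this 1 gene. Of the 6 resident fibroblast markers limma called 0. Inmt lay between 256 and 425 RPKM in KO-Bleo and between 183 and 227 RPKM in WT-Bleo, while the other 5 summed to between 185 and 227 RPKM and between 177 and 219 RPKM. Pdgfra, at -0.37, was the 1 fibroblast marker with a log2 fold change below 0, and the median of the 6 was 0.077. At an unadjusted p under 0.05, 2 of these 6 markers were higher and 1 was lower, where 1825 of all 16380 genes differed, 1041 of them being lower. Their part in the levels of the 8 genes was not tested.

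**Figure D3:**
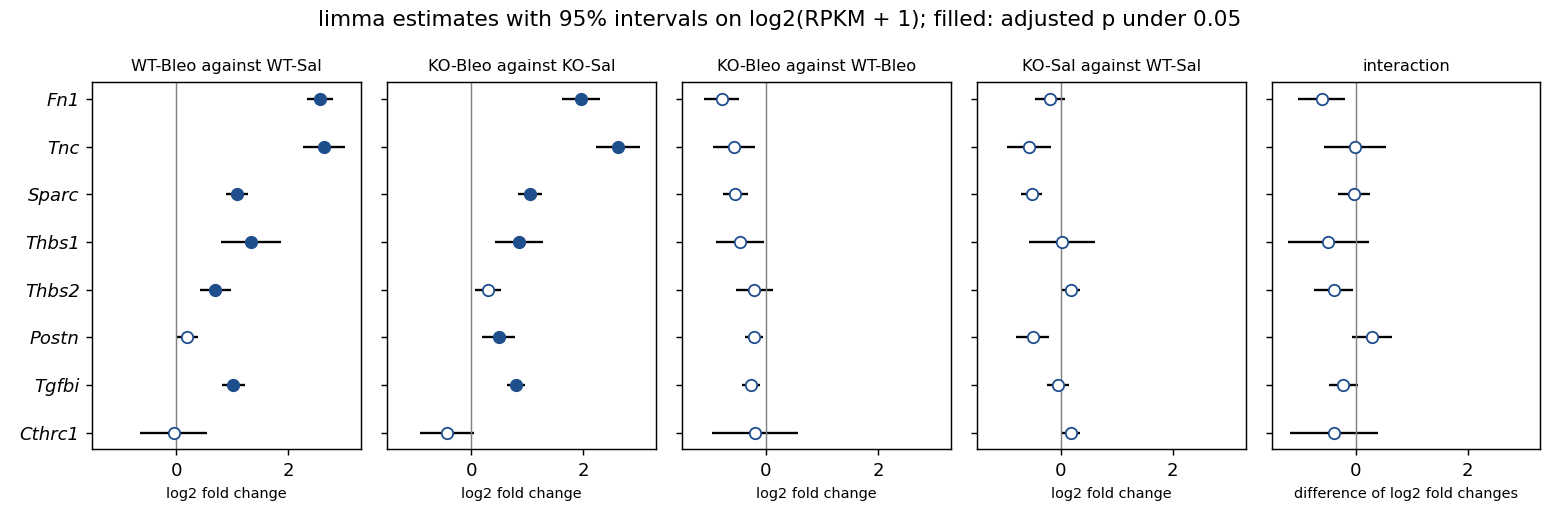
limma log2 fold changes of log2(RPKM + 1) with 95% intervals for the 8 genes in 4 comparisons, and in the last panel the interaction, the change with bleomycin in knockout lungs minus that in wildtype lungs. Filled points have an adjusted p under 0.05: 6 of 8 in each of the first 2 panels and 0 in the other 3.

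Under saline, limma called 0 of the 8 genes in KO-Sal against WT-Sal, against 0.0488% of all genes. At an unadjusted p under 0.05 Tnc, Sparc and Postn were lower and Thbs2 and Cthrc1 higher in KO-Sal, where 5.19% of all genes were lower and 11% higher, and limma-voom called Sparc lower, with 0.483% of the genes it tested. Only Sparc (KO-Sal lower) and Cthrc1 (KO-Sal higher) did not overlap, where 9.66% of all genes did not. The smooth muscle and myofibroblast markers summed to between 123 and 184 RPKM in KO-Sal and between 184 and 222 RPKM in WT-Sal, 4 of the 6 being lower at an unadjusted p under 0.05 and 0 called by limma, and their part in these values was not tested. The interaction, the change with bleomycin in knockout lungs minus that in wildtype lungs, was called by limma for 0 of the 8 against 0.22% of all genes, and by limma-voom for 0 against 0.633%. It was below 0 for 7 of the 8 (55.3% of all genes). At an unadjusted p under 0.05 Fn1 and Thbs2 had an interaction below 0, as did 6.96% of all genes.

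Fn1, on chromosome 1 from 71585473 to 71653280 (GRCm38.p6, gene ID 14268), encodes fibronectin. It was at 42.5, 38.9, 38.9 and 42.5 RPKM in WT-Sal and at 249, 295, 199 and 244 RPKM in WT-Bleo. The groups lay far apart, with means of 40.7 ± 2.08 and 247 ± 39.1 RPKM (SD, n = 4), a 6.07-fold difference. Among all 16380 genes the log2 fold change of 2.56 (SE 0.10, limma adjusted p = 4.57e-07) ranked 26 from the top. In knockout lungs Fn1 was at 39.5, 31.0, 28.9 and 45.0 RPKM in KO-Sal and at 132, 117, 149 and 171 RPKM in KO-Bleo. Again no libraries overlapped, and the means of 36.1 ± 7.50 and 142 ± 23.3 RPKM (SD, n = 4) were 3.94-fold apart (log2 fold change 1.96, SE 0.15, limma adjusted p = 3.61e-05).

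Fn1 was 1.74-fold higher in WT-Bleo than in KO-Bleo, and the highest KO-Bleo library (replicate 16, 171 RPKM) stayed below the lowest WT-Bleo library (replicate 7, 199 RPKM). The log2 fold change of -0.79 (95% interval -1.10 to -0.48, limma adjusted p = 0.0620) did not pass the test. It passed with a spread shared by all groups (adjusted p = 0.00967), with limma-voom (0.0222), with library quality weights (0.0150), with both filters on low values (0.0438 and 0.0137) and without KO-Bleo replicate 16 (0.0493), and it reached 0.186 without KO-Bleo replicate 14. Its rank by p in this comparison was 58 of 16380. With saline Fn1 overlapped between genotypes (log2 fold change -0.19, 95% interval -0.46 to 0.08). The interaction was -0.60 (95% interval -1.02 to -0.18, limma adjusted p = 0.296), and it stayed between -0.70 and -0.49 when each library was left out in turn.

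Tnc, on the minus strand of chromosome 4 from 63959785 to 64047015 (gene ID 21923), encodes tenascin C, a multi-armed glycoprotein that is scarce in most adult tissue. WT-Sal lungs held 4.34, 3.99, 3.51 and 2.46 RPKM and WT-Bleo lungs 29.1, 23.5, 22.1 and 35.2 RPKM. All WT-Bleo libraries lay above all WT-Sal libraries, and the means were 7.68-fold apart (log2 fold change 2.63, SE 0.17, limma adjusted p = 5.82e-06). KO-Sal lungs held 1.93, 1.99, 1.38 and 3.17 RPKM and KO-Bleo lungs 16.9, 13.8, 19.8 and 21.7 RPKM. This 8.53-fold difference (log2 fold change 2.62, SE 0.18, limma adjusted p = 1.63e-05) ranked 14 from the top in knockout lungs, where it was 1.69 with a pseudocount of 5.

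Tnc was lower in KO-Bleo than in WT-Bleo in every library, the closest pair being 21.7 and 22.1 RPKM. The log2 fold change was -0.57 (95% interval -0.95 to -0.20, limma adjusted p = 0.230). With saline it was -0.56 (95% interval -0.96 to -0.17, limma adjusted p = 0.154), or -0.27 with a pseudocount of 5 and -0.81 with limma-voom, and KO-Sal replicate 12, at 3.17 RPKM, was the 1 knockout library inside the wildtype range. Without that library the saline difference passed the test (limma adjusted p = 0.0309), and over the alternatives its adjusted p reached 0.331. The interaction was -0.01 (95% interval -0.57 to 0.55), an interval that leaves room for a difference in either direction.

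Promoter windows of 250 bases before an annotated start were given for 5 of the 8 genes in the RefSeq table (GRCm38.p6). For Tnc, Thbs2 and Postn 1 window without an exon is printed. These 3 genes rose with bleomycin in at least 1 genotype, and the windows printed are ones that hold a match to TATAAA on either strand. The first Postn window also overlaps no exon but holds no match to TATAAA, and it is not printed. A second Tnc window, which overlaps an exon, holds a match to TATAAA and is not printed. The windows of Sparc and Tgfbi, which rose in both genotypes, overlap exons and hold no match to TATAAA. Capitals mark matches to TATAAA or to the SMAD box CAGACA on either strand (TTTATA and TGTCTG on the other strand).
Tnc (chr4:64047016-64047265, minus strand): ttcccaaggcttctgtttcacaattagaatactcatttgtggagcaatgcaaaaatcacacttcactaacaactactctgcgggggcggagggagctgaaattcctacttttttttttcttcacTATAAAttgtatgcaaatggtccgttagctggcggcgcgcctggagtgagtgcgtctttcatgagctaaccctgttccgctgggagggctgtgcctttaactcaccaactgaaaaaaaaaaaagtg
Thbs2 (chr17:14694263-14694512, minus strand): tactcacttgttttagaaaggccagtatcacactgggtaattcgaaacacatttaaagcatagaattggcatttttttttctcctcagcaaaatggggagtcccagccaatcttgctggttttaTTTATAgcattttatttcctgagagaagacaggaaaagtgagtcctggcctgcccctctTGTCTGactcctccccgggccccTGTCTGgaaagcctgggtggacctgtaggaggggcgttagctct
Postn, second annotated start (chr3:54360857-54361106, plus strand): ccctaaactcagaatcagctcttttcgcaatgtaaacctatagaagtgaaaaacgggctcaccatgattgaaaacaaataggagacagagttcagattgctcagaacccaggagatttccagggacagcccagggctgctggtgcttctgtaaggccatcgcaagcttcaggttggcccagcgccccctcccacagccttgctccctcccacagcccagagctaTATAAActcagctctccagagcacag
The match to TATAAA began 126 bases before the start in Tnc and 26 bases before it in Postn. In Thbs2 the match was on the other strand, 126 bases before the start. Thbs2 also held 2 SMAD boxes, 67 and 44 bases before its start. The Sparc window and the second Tnc window held 1 SMAD box each. Of all 32851 promoter windows of this length, 12.37% held TATAAA and 17.13% held CAGACA on either strand. No window of the 5 genes held the AP-1 site TGANTCA (6.749% of all windows) or the MCAT site GGAATG (12.64%). A match is a run of letters, not a measured binding site.

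Sparc, on the minus strand of chromosome 11 from 55394159 to 55420080 (gene ID 20692), encodes a collagen-binding glycoprotein that takes part in collagen fibril assembly. Its values were 618, 507, 604 and 545 RPKM in WT-Sal and 1125, 1385, 1117 and 1198 RPKM in WT-Bleo. The ranges were well apart, and the 2.12-fold difference gave a log2 fold change of 1.08 (SE 0.09, limma adjusted p = 2.41e-05). In the knockout Sparc stood at 385, 369.8, 386 and 442 RPKM with saline and 869, 699.95, 806 and 933 RPKM with bleomycin. That difference was 2.09-fold (log2 fold change 1.06, SE 0.10, limma adjusted p = 8.75e-05).

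Sparc was lower in the knockout under both treatments. Every KO-Bleo library lay below every WT-Bleo library, with 827 ± 99.2 against 1206 ± 124 RPKM (SD, n = 4), and every KO-Sal library below every WT-Sal library, with 396 ± 31.8 against 569 ± 51.7 RPKM (SD, n = 4). The log2 fold change was -0.55 with bleomycin (95% interval -0.77 to -0.32, limma adjusted p = 0.0736) and -0.52 with saline (95% interval -0.71 to -0.33, limma adjusted p = 0.0609), and neither passed the test. With limma-voom both passed (adjusted p = 0.00545 and 0.0170), and without KO-Sal replicate 12, the highest KO-Sal library, the saline difference passed at 0.00826. Over the alternatives the adjusted p reached 0.199 with bleomycin and 0.189 with saline. The interaction was -0.03 (95% interval -0.31 to 0.26, limma adjusted p = 0.961).

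Thbs1, on chromosome 2 from 118111876 to 118127133 (gene ID 21825), encodes thrombospondin 1, which can activate latent TGF-beta and binds CD36 and CD47. WT-Sal libraries spread from 33.3 to 81.6 RPKM (43.7, 81.6, 53.4 and 33.3) and WT-Bleo libraries were at 154, 133, 99.99 and 132 RPKM. The increase was 2.45-fold (log2 fold change 1.34, SE 0.24, limma adjusted p = 0.00233). KO-Sal values were 45.3, 41.2, 54.5 and 65.6 RPKM and KO-Bleo values 68.2, 82.6, 100.3 and 129.8 RPKM, a 1.84-fold increase (log2 fold change 0.85, SE 0.19, limma adjusted p = 0.0110). KO-Bleo and WT-Bleo overlapped (log2 fold change -0.47, 95% interval -0.90 to -0.04, limma adjusted p = 0.413). Platelet markers, 7 of 7 listed, summed to between 17.4 and 35.8 RPKM in WT-Sal and between 25.95 and 30.6 RPKM in WT-Bleo. That sum held opposite moves. Mean Pf4 was 9.90 RPKM in WT-Sal and 20.3 RPKM in WT-Bleo, and mean Ppbp was 12.8 and 4.94 RPKM. With bleomycin 6 of the 7 log2 fold changes were below 0. limma called 1 marker higher and 1 lower, where 30.9% of all genes were called. The part of platelet markers in the Thbs1 levels was not tested.

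Thbs2, on the minus strand of chromosome 17 from 14665500 to 14694262 (gene ID 21826), encodes thrombospondin 2, whose loss in mice gives abnormal collagen fibrils. It was low, at 0.412, 0.411, 0.453 and 0.471 RPKM in WT-Sal and 1.33, 0.838, 1.59 and 1.63 RPKM in WT-Bleo. Replicate 6 of WT-Bleo rested on 3 reads and was still above every WT-Sal library, and the means were 3.08-fold apart (log2 fold change 0.69, SE 0.12, limma adjusted p = 0.00220). Since Thbs2 lies near the pseudocount, this estimate was 1.39 with a pseudocount of 0.1, 0.22 with one of 5 and 1.74 with limma-voom. Knockout lungs held 0.618, 0.822, 0.435 and 0.654 RPKM with saline and 0.830, 0.857, 1.09 and 1.28 RPKM with bleomycin. The values did not overlap, but the log2 fold change of 0.30 (95% interval 0.07 to 0.54, limma adjusted p = 0.0644) did not pass the test, while limma-voom gave 0.67 (adjusted p = 0.0314). The log2 fold change of KO-Bleo against WT-Bleo was -0.21 (95% interval -0.54 to 0.12), and with limma-voom -0.60 (adjusted p = 0.0489).

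Postn, on the plus strand of chromosome 3 from 54359267 to 54391041 (gene ID 50706), encodes periostin, a FAS1-domain protein that binds integrins and promotes collagen cross-linking. Values were 161, 139, 173 and 152 RPKM in WT-Sal and 162, 196, 174 and 183 RPKM in WT-Bleo. The ranges overlapped, and the log2 fold change of 0.20 (95% interval 0.02 to 0.38, limma adjusted p = 0.0941) did not pass the test. In the knockout Postn was at 113, 87.1, 101 and 145 RPKM with saline and 149.9, 148, 152 and 169.7 RPKM with bleomycin. Here all KO-Bleo libraries were above all KO-Sal libraries, and Postn rose by 0.49 on the log2 scale (SE 0.13, limma adjusted p = 0.0238). The call was lost without KO-Sal replicate 9 (adjusted p = 0.0532), KO-Sal replicate 11 (0.0615) or KO-Bleo replicate 16 (0.0650).

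KO-Sal held the lowest Postn of the 4 groups, 112 ± 24.8 RPKM against 156 ± 14.1 RPKM in WT-Sal (SD, n = 4). The saline log2 fold change was -0.50 (95% interval -0.80 to -0.20, limma adjusted p = 0.109) and passed only without KO-Sal replicate 12 (0.0102). Over the alternatives its adjusted p reached 0.265. Between the bleomycin groups Postn differed by -0.21 (95% interval -0.37 to -0.04, limma adjusted p = 0.328). Its interaction of 0.29 (95% interval -0.06 to 0.65) was the 1 positive estimate among the 8 genes.

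Tgfbi, on the plus strand of chromosome 13 from 56609586 to 56639359 (gene ID 21810), encodes another FAS1-domain protein, first found as a gene induced by TGF-beta. Its values were 27.5, 27.8, 35.3 and 25.8 RPKM in WT-Sal and 64.1, 59.3, 57.1 and 57.7 RPKM in WT-Bleo. The 2.05-fold increase had a narrow spread in the bleomycin group (log2 fold change 1.02, SE 0.09, limma adjusted p = 4.17e-05). Knockout lungs held 26.9, 26.3, 29.8 and 28.7 RPKM with saline and 51.8, 45.5, 53.8 and 46.7 RPKM with bleomycin, a 1.77-fold increase (log2 fold change 0.80, SE 0.07, limma adjusted p = 7.66e-05). KO-Bleo lay below WT-Bleo in every library by a small margin (1.20-fold, log2 fold change -0.27, 95% interval -0.42 to -0.11, limma adjusted p = 0.184). limma-voom gave this difference an adjusted p of 0.0225. With saline the groups overlapped (log2 fold change -0.05, 95% interval -0.25 to 0.15).

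Cthrc1, on chromosome 15 from 39076932 to 39087121 (gene ID 68588), encodes a secreted glycoprotein of injured vessels and of activated fibroblasts. It was at 3.75, 3.88, 3.48 and 3.99 RPKM in WT-Sal and 3.92, 1.42, 5.66 and 4.68 RPKM in WT-Bleo. The low WT-Bleo value came from 1 read in the shallow replicate 6, and without that library the log2 fold change turned from -0.05 (95% interval -0.65 to 0.55) to 0.26. Neither value passed the test. In the knockout Cthrc1 was at 4.55, 4.69, 4.04 and 4.49 RPKM with saline and 3.86, 3.17, 1.39 and 4.45 RPKM with bleomycin, the 1.39 RPKM being 2 reads in replicate 15. The log2 fold change was -0.43 (95% interval -0.92 to 0.05, limma adjusted p = 0.180), which was -0.18 without the shallow replicate 15, and neither value passed the test. All KO-Sal values were above all WT-Sal values (4.44 ± 0.283 against 3.78 ± 0.224 RPKM, SD, n = 4), with a log2 fold change of 0.19 (95% interval 0.02 to 0.35, limma adjusted p = 0.239).

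**Figure D4:**
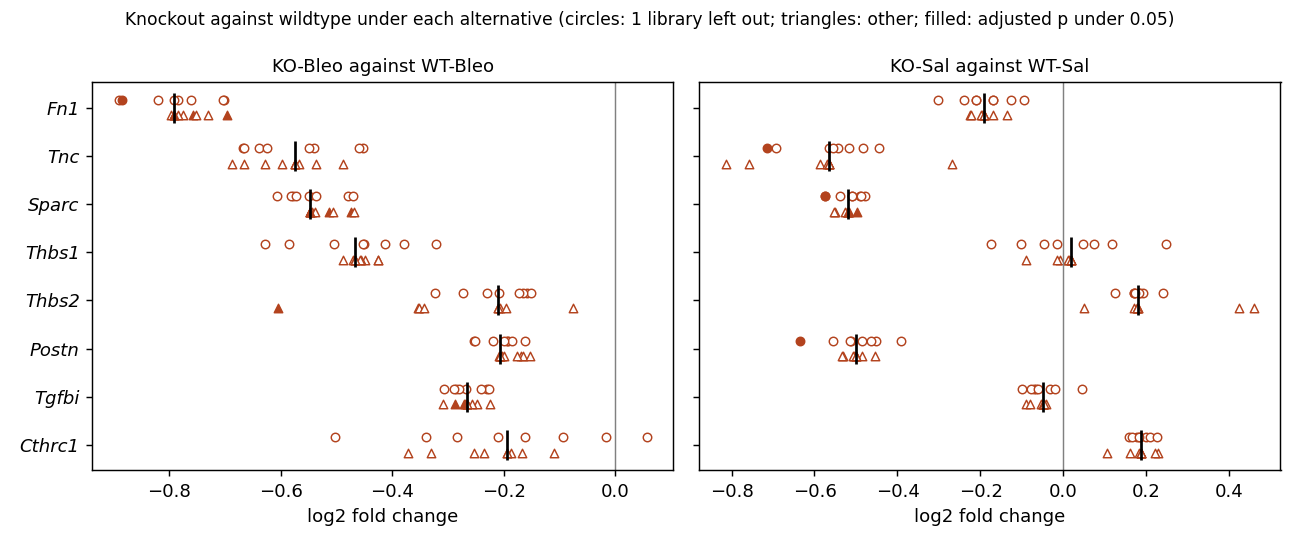
log2 fold changes of knockout against wildtype lungs with bleomycin (left) and saline (right) for the 8 genes: the black bar is the reported estimate, circles leave out 1 library each, triangles are the other alternatives, and filled symbols have an adjusted p under 0.05. With bleomycin Fn1 stays between -0.89 and -0.70, and among the 8 genes only Cthrc1 has a symbol above 0 (0.06).

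The genes whose standardised levels over the 16 libraries were most like each member's were found by the root mean square difference in SD units among 13318 genes. The libraries share groups and depth, so this is a description. Fn1 was nearest to Timp1 (0.114), an inhibitor of matrix metalloproteinases, then to Rrm1 and Serpinb9b (both 0.167), and Tnc was nearest to Brinp1 (0.123), Timp1 (0.165) and Adam9 (0.173). Sparc was nearest to Fstl1 (0.128), a secreted relative of Sparc, to Col5a2 (0.157) and to Ssr2 (0.166). Thbs1 had no gene as close, with Egr2 at 0.358 and Itga5 and Stat3 at 0.362, and the same held for Thbs2 (Mapk11 at 0.344, B4galt6 at 0.391 and Pdgfc at 0.396) and Postn (Nrep at 0.332, Lhfp at 0.375 and Vstm4 at 0.400). Tgfbi was nearest to Pirb (0.172), an inhibitory receptor of myeloid cells, then to Psmd8 (0.191) and Esd (0.193). For Cthrc1 the nearest were Mir1191 (0.324), Kri1 (0.359) and Leng1 (0.402). Among the members themselves Fn1 and Tnc were closest (0.199), and Cthrc1 was farthest from the others (at least 1.32).

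Other matricellular genes moved in both directions with bleomycin. Of 21 in the list, 20 were listed (all but Spock1), and in wildtype lungs 8 rose and 4 fell while in knockout lungs 6 rose and 3 fell. Spp1, encoding osteopontin, rose from 47.3 ± 7.74 to 1026 ± 81.6 RPKM in wildtype lungs (SD, n = 4), by 4.42 on the log2 scale (limma adjusted p = 2.85e-08). Fstl1 rose by 1.15 (adjusted p = 1.45e-05) and Thbs4 by 1.38 (adjusted p = 4.28e-05), while Thbs3 fell by 1.01 (adjusted p = 3.26e-05). Thbs4 lay far below the pseudocount in WT-Sal (0.0612 RPKM), and its estimate was 0.42 with a pseudocount of 5 and 4.51 with limma-voom. In KO-Bleo against WT-Bleo 0 of the 20 were called, against 0.214% of all genes. At an unadjusted p under 0.05, 7 of the 20 were lower and 2 higher. At that p 1825 of all 16380 genes differed, 1041 of them (6.36% of all genes) being lower. The smallest p-values belonged to Fstl1 (-0.65, limma adjusted p = 0.0594), Sparcl1 (-0.40, 0.124), Thbs3 (0.38, 0.161) and Wisp2 (-0.45, 0.204). Under saline 0 of the 20 were called, against 0.0488% of all genes, with 3 on either side at an unadjusted p under 0.05. At that p 5.19% of all genes were lower and 11% higher.

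**Figure D5:**
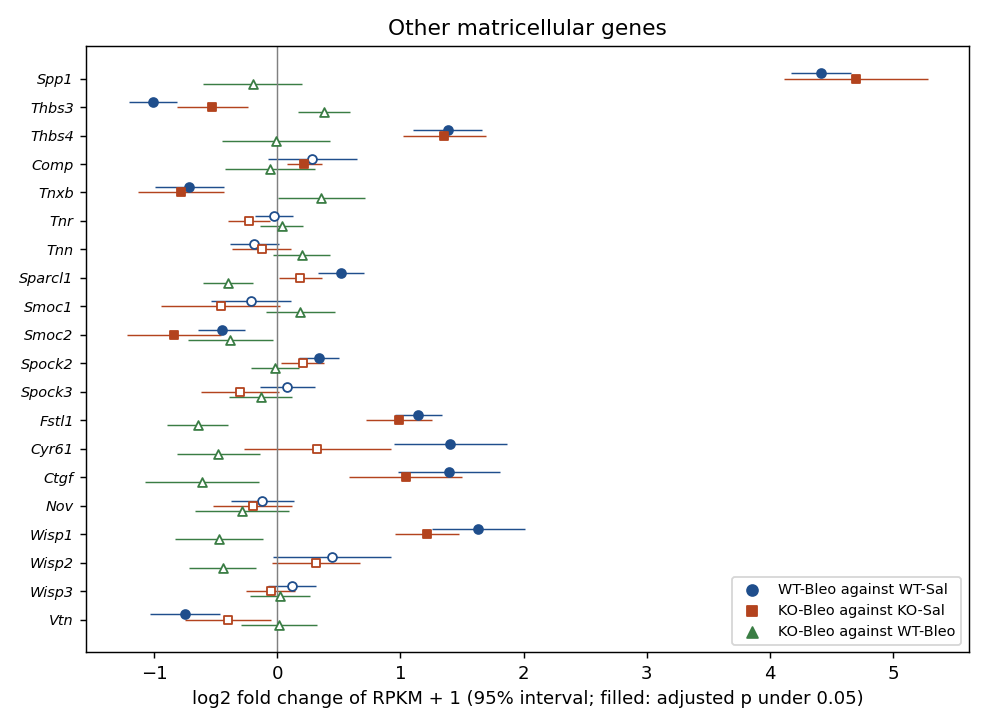
log2 fold changes of log2(RPKM + 1) with 95% intervals for the 20 other matricellular genes listed, with bleomycin in wildtype lungs (circles), in knockout lungs (squares) and between genotypes under bleomycin (triangles), filled at an adjusted p under 0.05. Spp1 lies far to the right at 4.42 in wildtype lungs, and none of the triangles is filled.

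Matrix partners of the 8 proteins rose with bleomycin. Of 10 listed (6 collagen chains, the proteoglycans Dcn and Bgn, and the enzymes Bmp1 and Lox), 8 rose in each genotype and none fell. The called share of all genes was 30.9% in wildtype lungs (18.6% higher) and 23.6% in knockout lungs (13.2% higher). The smallest p-values in wildtype lungs belonged to Col5a2 (1.49), Col1a2 (1.14), Col1a1 (1.40) and Col3a1 (0.93), and Lox rose by 1.35. Lox, which cross-links collagen and elastin, was the 1 partner called in KO-Bleo against WT-Bleo, with 27.5 ± 3.47 against 50.9 ± 9.89 RPKM (SD, n = 4) and a log2 fold change of -0.85 (limma adjusted p = 0.0488). That call was lost under 9 of 18 alternatives, with the adjusted p at 0.186 without KO-Bleo replicate 14. With saline Lox was at 10.6 ± 2.83 RPKM in KO-Sal and 19.3 ± 3.20 RPKM in WT-Sal (SD, n = 4), a difference that did not pass the test (-0.83, limma adjusted p = 0.0765). Between the bleomycin groups Col5a2 (-0.63, limma adjusted p = 0.101), Col1a1 (-0.67, 0.170) and Col1a2 (-0.51, 0.190) did not pass. At an unadjusted p under 0.05, 7 of the 10 were lower there, against 6.36% of all genes.

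Of 15 receptors, 8 rose and 5 fell in wildtype lungs, and 6 rose and 2 fell in knockout lungs. For comparison, limma called 30.9% of all genes in wildtype lungs (18.6% higher) and 23.6% in knockout lungs (13.2% higher). Itga8, an integrin subunit that binds fibronectin and tenascin C, fell by 1.07 in wildtype lungs (limma adjusted p = 3.34e-06) and Cd36, a thrombospondin receptor, fell by 0.74 (1.81e-05). Sdc1, a cell surface proteoglycan, rose by 0.60 (2.34e-05) and Itgb6, part of a fibronectin receptor of epithelium that activates TGF-beta, by 0.69 (0.000707). Between genotypes under bleomycin 0 of the 15 were called by limma, against 0.214% of all genes. At an unadjusted p under 0.05, 3 were lower (6.36% of all genes were) and 1 higher: Itgb5 (-0.19), Itga5 (-0.30), Stab1 (-0.25) and Itga4 (0.30).

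Of 9 TGF-beta ligands, receptors and response genes, 5 rose and 2 fell with bleomycin in wildtype lungs and 5 rose and 1 fell in knockout lungs. The shares of all genes called were 30.9% in wildtype lungs (18.6% higher) and 23.6% in knockout lungs (13.2% higher). Ltbp2, which encodes a latent TGF-beta binding protein of the matrix, rose by 1.68 in wildtype lungs (limma adjusted p = 2.24e-05), Tgfb2 by 0.86 (6.88e-05) and Tgfbr2 by 0.63 (8.39e-05). The 2 that fell in wildtype lungs were Smad7 and Skil, with mean RPKM in WT-Bleo 0.743-fold and 0.858-fold that in WT-Sal. For Tgfb1 the ratio was 1.19-fold, and its libraries overlapped between these groups. In KO-Bleo against WT-Bleo 0 of the 9 were called by limma, against 0.214% of all genes. At an unadjusted p under 0.05, 5 of the 9 were lower, against 6.36% of all genes. Among these 5 were Ltbp2 (-0.78, limma adjusted p = 0.0888), Tgfb2 (-0.27, 0.327) and Tgfb3 (-0.23, 0.349). The median of the 9 was 0.41 with bleomycin in wildtype lungs and -0.23 between genotypes under bleomycin, against medians of 0.01 over all genes in both comparisons.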

How the data were processed

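RNA of whole lungs was sequenced in 16 libraries, 4 per group, numbered 1 to 16. Tools named in the submitters' notes were bcl2fastq, CASAVA 1.8, TopHat and DESeq, with the build mm10. The deposited values were taken as RPKM, which the authors made from reads by scaling to gene length and library depth, although no source used here names the unit. For 16363 of 16380 genes (99.9%, relative tolerance 6e-08) they were whole reads times 1 factor per gene and 1 per library. All 16 value columns were used and 0 were left out. No source used here states whether counting used strand. Exons of Fn1, Thbs1 and Tnc each overlap those of 1 gene of the other strand in GENCODE. The extent of these overlaps was not measured. If counting ignored strand, reads inside the shared bases could not be assigned to 1 gene of a pair.

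Each comparison was fitted with limma 3.58.1 (R 4.3.3, variance trend, robust option) on log2(RPKM + 1) of its own 8 libraries, the interaction on all 16, with Benjamini-Hochberg adjustment over 16380 genes and calls at an adjusted p under 0.05. Exact permutation tests were two-sided and unadjusted. Positions come from GRCm38.p6. The scripts were tested on simulated data.

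The members and all gene lists were chosen with earlier results of these data known. Named were the 8 members, Il31ra, Osmr, in each list of related genes up to 4 with the smallest p in WT-Bleo against WT-Sal and up to 4 in KO-Bleo against WT-Bleo, and for each member the 3 genes of nearest pattern among those averaging at least 1 on the log2 scale. For 1 gene that this rule names, the result is not reported here. Alternatives were pseudocounts of 0.1 and 5, filters of a mean of 1 RPKM and of 10 reads in every library, limma-voom on whole reads with trimmed-mean scaling, median-of-ratios and upper-quartile scaling, a shared spread, library quality weights, and leaving out libraries. Median total reads were 12025521 in WT-Sal, 15150926 in WT-Bleo, 17039349 in KO-Sal and 18814309 in KO-Bleo. Reads without molecular identifiers are not independent molecules.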

Additional observations from a re-analysis of the deposited data

How the results depend on the processing

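The shallow WT-Bleo replicate 6 and KO-Bleo replicate 15 limit the low genes Thbs2 and Cthrc1, which the filter of 10 reads in every library removed from comparisons that hold these libraries. In comparisons with 1 shallow library, leaving out both equals leaving out that one. No paired analysis was possible because the sources used here do not tie libraries to litters or single mice. Of 740 estimates for the 8 genes under alternatives, 681 kept their direction and their side of the threshold, 25 passed it anew, 3 lost the call and 31 changed sign, all of estimates that were not called.

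The count of called genes was 5066 for bleomycin in wildtype lungs (3878 to 6442 with 1 library left out, 4092 to 7087 otherwise) and 3864 in knockout lungs (2698 to 4073, and 3403 to 5320). In wildtype lungs 60.1% of calls were higher, but 49.8% with median-of-ratios and 48.6% with upper-quartile scaling. For KO-Bleo against WT-Bleo the count was 35, and it was 67 with a mean of at least 1 RPKM, 149 with the filter of 10 reads, 565 with limma-voom, 3 with upper-quartile scaling, 269 with a shared spread, 406 with library weights, 95 without both shallow libraries and 0 to 47 with 1 library left out. limma called 0 when WT-Bleo replicate 5, WT-Bleo replicate 7, KO-Bleo replicate 13 or KO-Bleo replicate 14 was the one left out, with 1629, 1846, 1617 and 1334 genes at an unadjusted p under 0.05. For KO-Sal against WT-Sal it was 8, and 40 with the filter of 10 reads, 128 with limma-voom, 69 with a shared spread, 176 with library weights and 3 to 722 with 1 library left out, the 722 without KO-Sal replicate 12. Of its calls 37.5% were higher, against 27.3% with median-of-ratios scaling, 57.5% with the filter of 10 reads, 58.0% with a shared spread, 64.8% with library weights and 74.0% without KO-Sal replicate 12. For the interaction it was 36, and 55 with the filter of 10 reads, 99 with limma-voom, 136 with library weights, 0 by limma with upper-quartile scaling (1507 at an unadjusted p under 0.05) and 3 to 60 with 1 library left out. The causes of these moves were not tested.

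Members without overlap numbered 4 for KO-Bleo against WT-Bleo and 2 with upper-quartile scaling, where 8.48% and 7.05% of all genes did not overlap. Under saline they numbered 2 (9.66% of all genes), with 1 under median-of-ratios (9.75%) and 1 under upper-quartile scaling (9.6%), and 2 to 4 with 1 library left out (11.6% to 17.4%), the 4 without KO-Sal replicate 12 (17.4%). Estimates near 0 changed sign, for causes that were not tested. Cthrc1 with bleomycin in wildtype lungs was 0.33 with limma-voom and 0.27 with library weights, and -0.23 to 0.26 with 1 library left out, and in KO-Bleo against WT-Bleo it was -0.50 to 0.057. Thbs1 under saline was -0.0073 with limma-voom, -0.014 with median-of-ratios scaling, -0.089 with library weights and -0.18 to 0.25 with 1 library left out, and Tgfbi -0.10 to 0.045. The interaction of Tnc was 0.16 with a pseudocount of 0.1, 0.14 with limma-voom, 0.020 with median-of-ratios and 0.037 with upper-quartile scaling, and -0.13 to 0.14 with 1 library left out. The interaction of Sparc was 0.022 with limma-voom, 0.022 with upper-quartile scaling, 0.023 with library weights, 0.012 with median-of-ratios scaling, 0.052 without both shallow libraries and -0.087 to 0.051 with 1 library left out. With library weights Postn in wildtype lungs (0.0384) and the interaction of Thbs2 (0.0473) had adjusted p values past the threshold.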

Other observations

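The members' highest and lowest values fell in particular libraries. KO-Bleo replicate 16 held the highest value of 7 of the 8 genes in its group, all but Tgfbi, and KO-Bleo replicate 14 the lowest value of 5. KO-Sal replicate 12 held the highest value of 5 genes, Fn1, Tnc, Sparc, Thbs1 and Postn. KO-Sal replicate 10, with the high adipocyte sum, held the lowest value of 4 (Sparc, Thbs1, Postn and Tgfbi). Replicate 11 held the lowest of the other 4. In WT-Bleo, replicate 7, the deepest library, held the lowest value of 5 genes, and replicate 6, the shallowest, the highest value of Fn1, Sparc and Postn.

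Osmr, the partner of IL-31RA in the receptor for IL-31, was at 24.5 ± 2.75 RPKM in WT-Sal, 34.2 ± 3.32 RPKM in WT-Bleo, 21.3 ± 1.84 RPKM in KO-Sal and 34.6 ± 4.31 RPKM in KO-Bleo (SD, n = 4). It rose with bleomycin in wildtype lungs by 0.47 on the log2 scale (limma adjusted p = 0.00448) and in knockout lungs by 0.67 (limma adjusted p = 0.000820).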
